A study of Mus musculus with 28 samples.

Results

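The genes described here are 10 enzymes of glycolysis, *Hk2*, *Gpi1*, *Pfkp*, *Aldoa*, *Tpi1*, *Pgk1*, *Pgam1*, *Eno1*, *Pkm* and *Ldha*. They were chosen by name, and all 10 were found among the 48587 genes of the deposited count table and had enough reads to be tested, as had 15298 genes in all. RNA was sequenced from hippocampal microglia that were sorted by FACS as viable CD11b+CD45lo cells, with 1 library for each of 28 mice aged 16 weeks. The sort left out cells that stained for markers of other lineages, among them Ly6C and Ly6G, which mark monocytes and neutrophils. The study compared 5xFAD mice, a transgenic model of Alzheimer's disease, with WT mice under 3 conditions, in order to ask how gut microbiota bear on microglia. Groups were 5 SPF WT, 3 SPF 5xFAD, 4 GF WT, 5 GF 5xFAD, 5 ABX WT and 6 ABX 5xFAD mice.

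SPF mice carried a flora free of specific pathogens, GF mice were raised without germs, and ABX mice were SPF mice given antibiotics for 8 weeks. The antibiotics were vancomycin, cefoxitin, gentamicin and metronidazole in the drinking water. All mice were males on the C57BL/6J background. 5xFAD mice were heterozygous and expressed human APP and PS1 with familial mutations from the neuronal Thy-1 promoter, so that microglia themselves are not the cells in which that promoter is active. GF mice came from a facility in Bern and the others were kept in Freiburg, so that GF housing and source cannot be told apart. The title and genotype of mouse FAD_GF_201 place it in the GF 5xFAD group, but its description reads GF WT. It was used as a GF 5xFAD mouse. Values without it are given below for the GF genotype effects of most called members, for *Tpi1* between GF and SPF 5xFAD mice and for the called isozyme shares of GF mice. Other results that rest on it are not all given without it.

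Glycolysis turns glucose into pyruvate in the cytosol and yields ATP without oxygen. Hexokinases trap glucose in the cell as glucose 6-phosphate, a chain of isomerases, kinases and an aldolase splits it into triose phosphates, and the later enzymes harvest ATP and NADH before lactate dehydrogenase converts pyruvate to lactate. Microglia can run on glycolysis as well as on mitochondrial respiration, and myeloid cells are known to raise glycolysis on activation, with the oxygen-regulated factor HIF-1 among the factors that act on its genes.

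Each library had 14441610 to 29977395 reads on genes. Levels are given as CPM, a gene's reads relative to the library size scaled by TMM, and fold changes, adjusted p-values and 95% intervals come from edgeR's quasi-likelihood test, with Benjamini-Hochberg adjustment over the 15298 genes and a threshold of 0.05. A gene that passed the threshold is called higher or lower. The 54 pairs of replicates differed by more than counting noise, with a chi-square per degree of freedom of at least 6.92, and each library was counted as a separate sample. In a bulk sample, fewer cells of a type and less RNA per cell cannot be told apart. The submitters numbered the libraries in 3 styles, and whether these mark batches is not given in the sources used here. One style covers the SPF WT and ABX WT groups, another the SPF 5xFAD group with mouse FAD_ABX_1151 of the ABX 5xFAD group, and the last both GF groups with the rest of the ABX 5xFAD group. GF 5xFAD and GF WT mice thus share a style, whereas style and genotype cannot be told apart in SPF and ABX mice, nor style and condition between GF and SPF mice.

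All 9 microglia markers were detected in every group and summed to between 44640 and 64420 CPM of the library totals. The highest 5xFAD mouse had 55540 CPM and the lowest WT mouse 56940 CPM. Of 8 neutrophil markers, 7 were detected in SPF 5xFAD mice, with a sum of 56.5 to 220.8 CPM, against at most 0.177 CPM in SPF WT mice. In the GF groups the same sum did not exceed 1.38 CPM, and *S100a8*, *Ly6g*, *Retnlg* and *Mmp8* were at 0 in both. Among ABX 5xFAD mice it was 117.1 CPM in mouse FAD_ABX_1151 and at most 0.774 CPM in the others. All 7 markers of border-associated macrophages were detected in SPF and ABX 5xFAD mice, with a sum of 16.1 to 29.2 CPM and 34.0 to 253 CPM, against 3.48 to 8.15 CPM in SPF WT and 3.80 to 5.90 CPM in ABX WT mice, where *Cd163* and *Lyve1* were at 0. Their range in GF 5xFAD mice, 10.0 to 81.0 CPM, overlapped that in GF WT mice, 10.7 to 43.9 CPM. Of these 7 markers 5 were called higher in 5xFAD than in WT mice under SPF, 0 under GF and 7 under ABX conditions. The sum of 5 monocyte markers was 16.0 to 39.0 CPM in SPF 5xFAD against 6.76 to 8.57 CPM in SPF WT mice and 14.35 to 51.95 CPM in ABX 5xFAD against 3.75 to 9.32 CPM in ABX WT mice. In GF mice, where WT had 3.72 to 16.9 CPM and 5xFAD 6.02 to 24.9 CPM, the ranges overlapped, and *Ly6c2* and *Chil3* were at 0 in both GF groups and in ABX WT mice. In SPF mice *Chil3* had 115 to 557 counts in 5xFAD and at most 1 in WT mice, and *Ly6c2* 3 to 19 against 0. The other monocyte markers, *Ccr2*, *Plac8* and *Vcan*, overlapped there. In ABX mice *Ccr2* had 154 to 1248 counts in 5xFAD and 24 to 240 in WT mice, and *Plac8* and *Vcan* overlapped. *Chil3* was above 0 only in mouse FAD_ABX_1151, with 147 counts. Sums of 6 astrocyte and 5 endothelial markers were lower in GF 5xFAD than in GF WT mice without overlap, with medians of 171 against 255 CPM and 25.4 against 39.3 CPM, and overlapped between genotypes in SPF and ABX mice. Most reads of the astrocyte sum came from *Slc1a3*. The astrocyte marker *Gfap* went the other way, with 0 to 19 counts in GF WT and 23 to 129 in GF 5xFAD mice. Most reads of the endothelial sum came from *Pecam1* and *Kdr*, and *Kdr* and *Flt1* overlapped between the GF groups. Neither sum thus stands for its whole list. Neutrophils and most monocytes stain for Ly6G or Ly6C and fall under the exclusion in the sort. The part of these other cells in the differences between genotypes and conditions was not tested, and values without mouse FAD_ABX_1151 are given below.

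Positions are those of the deposited table on GRCm38, and those of 9 members are the same in GENCODE M21, which places *Pgam1* from 41911923 to 41918660. *Hk2* lies on chromosome 6 from 82725025 to 82774454 and *Tpi1* on the same chromosome from 124810586 to 124814296. Chromosome 7 carries *Gpi1* from 34201330 to 34230336, *Ldha* from 46841475 to 46855627 and *Aldoa* from 126795234 to 126809108. *Pfkp* lies on chromosome 13 from 6579768 to 6648777, *Pgk1* on chromosome X from 106187100 to 106203699 and *Pgam1* on chromosome 19 from 41911871 to 41918664. *Eno1* occupies 150236721 to 150248879 of chromosome 4 and *Pkm* 59656368 to 59679375 of chromosome 9. All 10 genes code for proteins, and the counts cover the exons of each gene as a whole, so the splice forms of *Pkm* were not told apart.

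Copies of these genes elsewhere in the genome bear on their counts. Of the 50-base windows of the longest M21 transcript, 72.2% of those of *Eno1*, 68.0% of *Pgk1*, 41.5% of *Pgam1* and 34.4% of *Pkm* also occur in a transcript of another gene. The share was 16.6% for *Ldha*, 13.5% for *Aldoa*, 10.2% for *Gpi1*, 7.5% for *Tpi1* and 0% for *Hk2* and *Pfkp*. How reads with several matches were counted is not given in the sources used here, so the levels of *Eno1*, *Pgk1* and *Pgam1* in particular are uncertain.

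Sequences upstream of the members' starts were searched for a motif. The core of the element that HIF-1 binds was searched as ACGTG or GCGTG on both strands in the 250 bases before each RefSeq transcript start on GRCm38.p6. Of 16 such windows of the 10 members, 12 held at least 1 match. *Aldoa* and *Eno1* each have a pair of overlapping windows that hold the same matches, so these 12 are not independent. A window with a match was found for 8 members, and for 41.5% of the 27025 genes in the RefSeq table, while *Gpi1* and *Tpi1* had none. Of all 32851 windows of the same length, 38.6% held a match and 16.7% held at least 2. A match is a sequence and not a site shown to be bound. The windows of *Ldha*, *Pgk1*, *Hk2* and *Gpi1* are printed 5′ to 3′ on the strand of the gene, with the matches in capitals, since they hold 5, 2, 2 and 0 matches. No M21 exon overlaps the first 3, while that of *Gpi1* overlaps an exon of the long non-coding gene *Gm12762*. A palindromic CACGTG counts as a match on each strand, and the printed *Ldha* window has 2 of them. The other *Ldha* window, from 46846832 to 46847081, holds 1 match and is not printed.
*Ldha*, chr7:46845554-46845803, plus strand: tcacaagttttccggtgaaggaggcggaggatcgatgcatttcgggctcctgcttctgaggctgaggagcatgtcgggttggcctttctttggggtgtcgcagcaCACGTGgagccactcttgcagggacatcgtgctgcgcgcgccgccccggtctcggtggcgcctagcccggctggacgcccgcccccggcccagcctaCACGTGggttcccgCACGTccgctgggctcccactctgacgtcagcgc
*Pgk1*, chrX:106186850-106187099, plus strand: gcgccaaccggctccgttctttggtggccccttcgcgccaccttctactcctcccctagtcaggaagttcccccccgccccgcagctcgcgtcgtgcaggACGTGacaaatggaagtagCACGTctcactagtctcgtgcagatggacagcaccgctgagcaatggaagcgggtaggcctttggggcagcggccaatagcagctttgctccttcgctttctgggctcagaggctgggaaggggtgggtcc
*Hk2*, chr6:82774455-82774704, minus strand: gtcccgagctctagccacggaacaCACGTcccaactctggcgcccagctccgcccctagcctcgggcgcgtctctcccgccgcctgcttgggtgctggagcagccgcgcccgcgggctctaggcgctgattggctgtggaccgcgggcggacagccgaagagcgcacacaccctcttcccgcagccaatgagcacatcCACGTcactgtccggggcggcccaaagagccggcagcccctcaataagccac
*Gpi1*, chr7:34230337-34230586, minus strand: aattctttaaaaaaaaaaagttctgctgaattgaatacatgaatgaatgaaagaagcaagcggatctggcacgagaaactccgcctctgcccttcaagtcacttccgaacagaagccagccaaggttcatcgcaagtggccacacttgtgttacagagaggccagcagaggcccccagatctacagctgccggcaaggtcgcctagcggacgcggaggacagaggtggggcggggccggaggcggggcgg

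Levels per length were taken over the summed exon length that the deposited table gives for each gene, and averaged over the 28 libraries of both genotypes. The pyruvate kinase gene *Pkm* stood at 92.2 CPM per kb, the aldolase gene *Aldoa* at 84.9, *Ldha* at 60.7 and the triose phosphate isomerase gene *Tpi1* at 40.5 CPM per kb. *Hk2* stood at 24.6, the enolase gene *Eno1* at 23.3 and the glucose phosphate isomerase gene *Gpi1* at 13.0 CPM per kb. The other 3 were far lower, with 2.19 CPM per kb for phosphoglycerate kinase *Pgk1*, 1.45 for phosphoglycerate mutase *Pgam1* and 0.193 for the platelet-type phosphofructokinase *Pfkp*. No order is read among the first 7, since the length used for a gene bears on it. The table gives 3762 bases for *Aldoa* and 2599 for *Pkm*, against 1549 and 2432 bases in their longest M21 transcripts. The levels of *Pgk1*, *Pgam1* and *Pfkp* rest on median counts of 86, 50 and 27 reads per library, and those of the other 7 lie between 1666 and 6322.

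In 5xFAD mice most of the pathway was higher than in WT mice under every condition. *Gpi1*, *Aldoa*, *Tpi1*, *Pgk1*, *Eno1*, *Pkm* and *Ldha* were called higher in all 3 comparisons, by 1.35-fold for *Eno1* in SPF mice up to 2.50-fold for *Pkm* in ABX mice. *Pgam1* was called higher in GF mice, while its adjusted p-value was 0.902 in SPF and 0.153 in ABX mice, and its effects did not pass a test of the difference between conditions. *Hk2*, which opens the pathway, and *Pfkp* were not called in any of the 3. In SPF mice 7 members were called higher, where 3.73% of all tested genes were, and 0 were called lower, against 0.837% of all genes. In GF mice 8 members were called higher, against 9.43% of all genes, and 0 lower, against 6.2%. The numbers in ABX mice were 7 higher, against 9.45% of all genes, and 0 lower, against 4.98%. DESeq2 and limma's voomWithQualityWeights called the same number in SPF and GF mice and 8 members in ABX mice, where *Hk2* was called lower. Over all genes DESeq2 called 5.84%, 18.1% and 16.7% in either direction in SPF, GF and ABX mice, and voomWithQualityWeights 14.1%, 16.0% and 14.3%. Genotypes did not overlap for 7 members under SPF, 7 under GF and 8 under ABX conditions, and all of these were higher in 5xFAD mice. Of all tested genes 9.44%, 9.14% and 4.68% were higher without overlap under these conditions. The median log2 fold change over the 10 members was 0.65, 0.94 and 0.74 under SPF, GF and ABX conditions, beside -0.03, -0.03 and -0.01 over all tested genes.

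**Figure D1:**
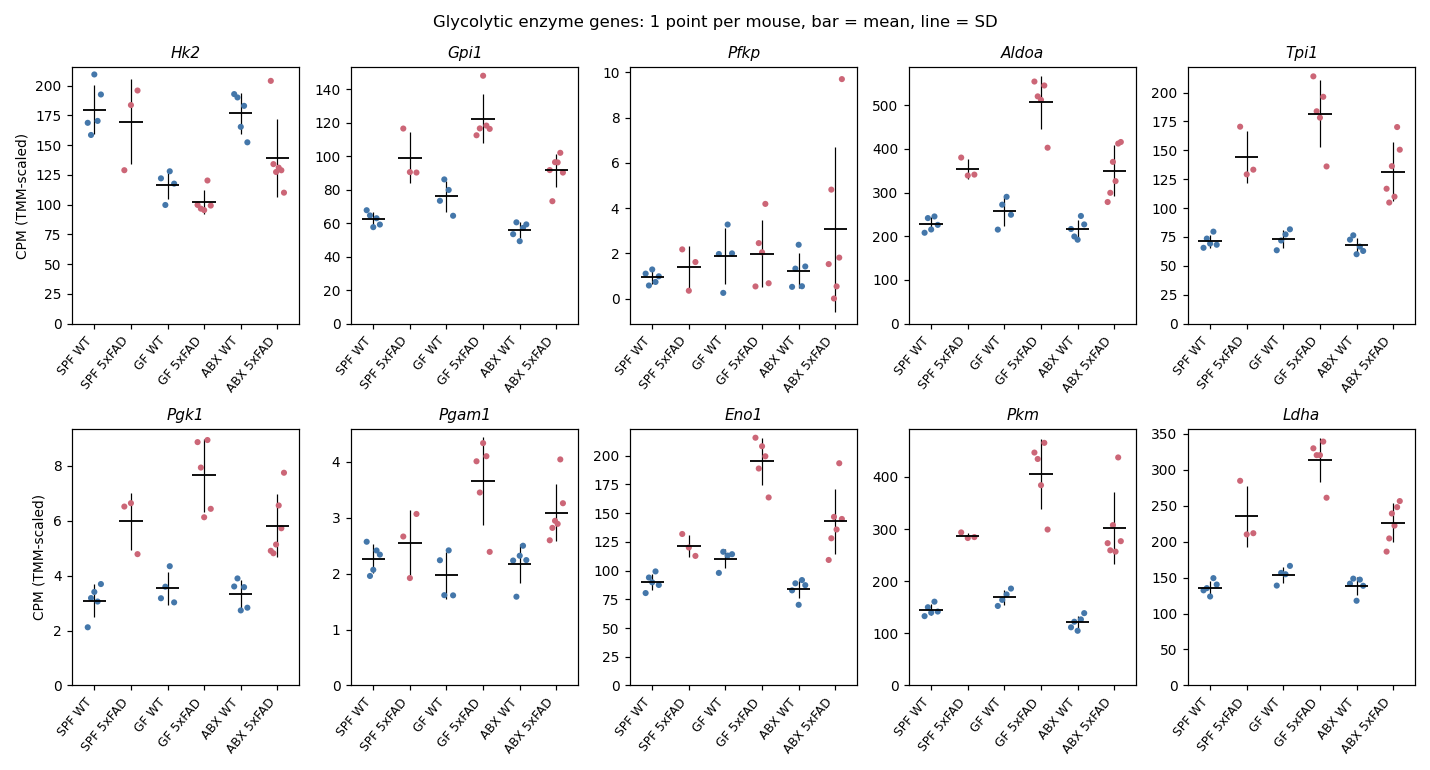
CPM of each member in the 28 mice, by group, with 1 point per mouse (blue WT, red 5xFAD), a bar at the mean and a line of 1 SD to either side. *Gpi1*, *Aldoa*, *Tpi1*, *Pgk1*, *Eno1*, *Pkm* and *Ldha* stood higher in every 5xFAD mouse than in every WT mouse of the same condition, whereas *Hk2* was lowest in the GF groups and *Pfkp* stayed under 10 CPM.

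The first step of glycolysis did not follow the others. In SPF mice *Hk2* stood at 169, 159, 209.5, 170.4 and 193 CPM in WT and at 129, 183.8 and 196 CPM in 5xFAD mice. GF mice had 122, 99.7, 128 and 118 CPM in WT and 99.8, 96.7, 95.4, 120.3 and 99.2 CPM in 5xFAD mice. Of ABX mice, the WT group had 193, 190.2, 165, 183 and 152 CPM, and the 5xFAD group ran from 110.1 CPM over a median of 130.0 to 204 CPM. Genotypes overlapped under each condition, and the mean of 5xFAD mice was the lower one in each. The log2 fold change was -0.09 (95% interval -0.39 to 0.22, adjusted p = 0.913) in SPF, -0.19 (-0.48 to 0.09, adjusted p = 0.392) in GF and -0.34 (-0.60 to -0.09, adjusted p = 0.0617) in ABX mice. The highest value of the ABX 5xFAD group belongs to mouse FAD_ABX_1151, and without this mouse the difference in ABX mice was -0.49 with an adjusted p-value of 0.00155.

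*Gpi1* and *Pfkp* act on the next steps, as the isomerase that makes fructose 6-phosphate and as an isoform of the kinase that commits it to glycolysis. *Gpi1* rose from 62.4 ± 4.09 CPM (SD, n = 5) in WT to 99.1 ± 15.1 CPM (SD, n = 3) in 5xFAD mice under SPF conditions, a log2 difference of 0.67 (SE 0.12, adjusted p = 0.000289). In GF mice it rose from 75.9 ± 9.29 CPM (SD, n = 4) to 122 ± 14.5 CPM (SD, n = 5), by 0.69 (SE 0.11, adjusted p = 3.65e-05). In ABX mice it rose from 55.9 ± 4.60 CPM (SD, n = 5) to 91.6 ± 9.98 CPM (SD, n = 6), by 0.71 (SE 0.10, adjusted p = 6.00e-06). Genotypes did not overlap under any condition, and the 3 changes lay close together. *Pfkp* ranged from 0 to 9.71 CPM with a spread as large as its mean in ABX 5xFAD mice, and its log2 fold changes of 0.56, 0.08 and 1.31 in SPF, GF and ABX mice had adjusted p-values of 0.901, 0.969 and 0.284. At 0 to 149 counts per library, differences of *Pfkp* were not detectable at this depth unless they were large.

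Aldolase and triose phosphate isomerase split the sugar and interconvert the products. *Aldoa* stood at 208, 242, 215, 245 and 226 CPM in SPF WT and at 380.3, 339 and 341 CPM in SPF 5xFAD mice. In GF mice the values were 215, 272, 290.4 and 249 CPM in WT and 554, 520.5, 512, 545 and 403 CPM in 5xFAD mice. ABX WT mice had 217, 199.4, 192, 247 and 227 CPM, and ABX 5xFAD mice 278 to 416 CPM with a median of 348. *Aldoa* separated the genotypes completely in all 3 conditions, with log2 fold changes of 0.64 (SE 0.12, adjusted p = 0.00087) in SPF, 0.98 (SE 0.12, adjusted p = 2.97e-07) in GF and 0.70 (SE 0.10, adjusted p = 1.67e-05) in ABX mice.

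*Tpi1* followed the same course with a larger change. Its levels were 65.6, 73.6, 69.2, 79.6 and 68.2 CPM in SPF WT and 170.5, 129 and 133 CPM in SPF 5xFAD mice. In GF mice they were 63.5, 71.9, 77.2 and 81.6 CPM in WT and 214, 183.8, 178, 196 and 136 CPM in 5xFAD mice. ABX WT mice had 72.7, 76.4, 60.0, 66.6 and 62.9 CPM and ABX 5xFAD mice 105 to 170.2 CPM with a median of 126.5. The highest WT mouse stood at 81.6 CPM and the lowest 5xFAD mouse at 105 CPM, over all conditions. The rise was 1.02 on the log2 scale (SE 0.14, adjusted p = 1.00e-05) in SPF, 1.30 (SE 0.14, adjusted p = 3.63e-08) in GF and 0.96 (SE 0.12, adjusted p = 1.39e-06) in ABX mice.

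The later steps yield the ATP of glycolysis. *Pgk1* stood at 3.09 ± 0.595 CPM (SD, n = 5) in SPF WT and 5.98 ± 1.04 CPM (SD, n = 3) in SPF 5xFAD mice. Under GF conditions WT mice had 3.54 ± 0.591 CPM (SD, n = 4) and 5xFAD mice 7.66 ± 1.32 CPM (SD, n = 5). Antibiotic-treated WT mice had 3.33 ± 0.516 CPM (SD, n = 5), below the 5.82 ± 1.15 CPM (SD, n = 6) of treated 5xFAD mice. Its genotypes did not overlap in any condition despite 46 to 203 counts per library, with log2 fold changes of 0.95 (adjusted p = 0.0106), 1.11 (adjusted p = 0.000573) and 0.81 (adjusted p = 0.0058). In SPF mice the call was lost without mouse FAD_SPF_1144 (adjusted p = 0.0698), without mouse FAD_SPF_1146 (adjusted p = 0.0646) and without a low-count filter (adjusted p = 0.082). *Pgam1* moved from 1.97 ± 0.419 CPM (SD, n = 4) to 3.65 ± 0.779 CPM (SD, n = 5) in GF mice, a log2 fold change of 0.89 (adjusted p = 0.0174), and its ranges met, with 2.41 CPM in the highest WT and 2.39 CPM in the lowest 5xFAD mouse. That call was lost without GF WT mouse WT_GF_229 (adjusted p = 0.0618) or WT_GF_231 (adjusted p = 0.0628). It was also lost without a low-count filter (adjusted p = 0.163), with gene length offsets (adjusted p = 0.0602) and in a fit of the GF groups alone (adjusted p = 0.1175). In SPF and ABX mice the log2 fold changes of *Pgam1* were 0.17 and 0.50.

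*Eno1* encodes the enolase that makes phosphoenolpyruvate. Its levels were 80.4, 94.0, 89.8, 99.3 and 87.5 CPM in SPF WT and 132, 120.1 and 113 CPM in SPF 5xFAD mice, which did not overlap. The difference of 0.43 on the log2 scale (SE 0.13) passed the threshold narrowly, with an adjusted p-value of 0.0447. It was called in 24 of 38 alternatives, and its adjusted p-value ranged from 0.00407 to 0.248 over them, the highest without SPF 5xFAD mouse FAD_SPF_1144. In GF mice *Eno1* rose from 110.4 ± 8.41 CPM (SD, n = 4) to 195 ± 20.3 CPM (SD, n = 5), by 0.82 (SE 0.12, adjusted p = 8.82e-06). In ABX mice it rose from 84.2 ± 8.46 CPM (SD, n = 5) to 143 ± 28.2 CPM (SD, n = 6), by 0.76 (SE 0.11, adjusted p = 6.60e-06).

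*Pkm* had the largest or second largest rise of the called members in each condition, beside *Tpi1*. It stood at 133, 150.1, 139.6, 161 and 142 CPM in SPF WT and at 294, 283 and 285 CPM in SPF 5xFAD mice. GF WT mice had 153, 164, 175 and 186 CPM and GF 5xFAD mice 447, 435, 384, 466 and 299 CPM. Among ABX mice, WT values were 112, 122, 105, 127 and 139 CPM, and those of 5xFAD mice 257 to 438 CPM with a median of 275. The lowest 5xFAD mouse stood at 257 CPM and the highest WT mouse at 186 CPM, over all conditions. The log2 fold change was 0.98 (SE 0.14, adjusted p = 1.15e-05) in SPF, 1.26 (SE 0.13, adjusted p = 4.04e-08) in GF and 1.32 (SE 0.12, adjusted p = 2.94e-09) in ABX mice.

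*Ldha* encodes the subunit of lactate dehydrogenase that prevails in glycolytic tissue. SPF WT mice had 132, 135, 124, 149 and 140.4 CPM and SPF 5xFAD mice 285, 210.0 and 212 CPM. In GF mice the levels were 139, 157, 155 and 166 CPM in WT and 329.8, 320.3, 320.2, 339 and 261 CPM in 5xFAD mice. ABX WT mice had 142, 149, 118, 147 and 139 CPM, while ABX 5xFAD mice ran from 186 over a median of 230.7 to 256 CPM. All 14 5xFAD mice lay above all 14 WT mice. Log2 fold changes were 0.79 (SE 0.11, adjusted p = 1.19e-05) in SPF, 1.03 (SE 0.11, adjusted p = 2.75e-08) in GF and 0.70 (SE 0.09, adjusted p = 3.42e-06) in ABX mice.

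**Figure D2:**
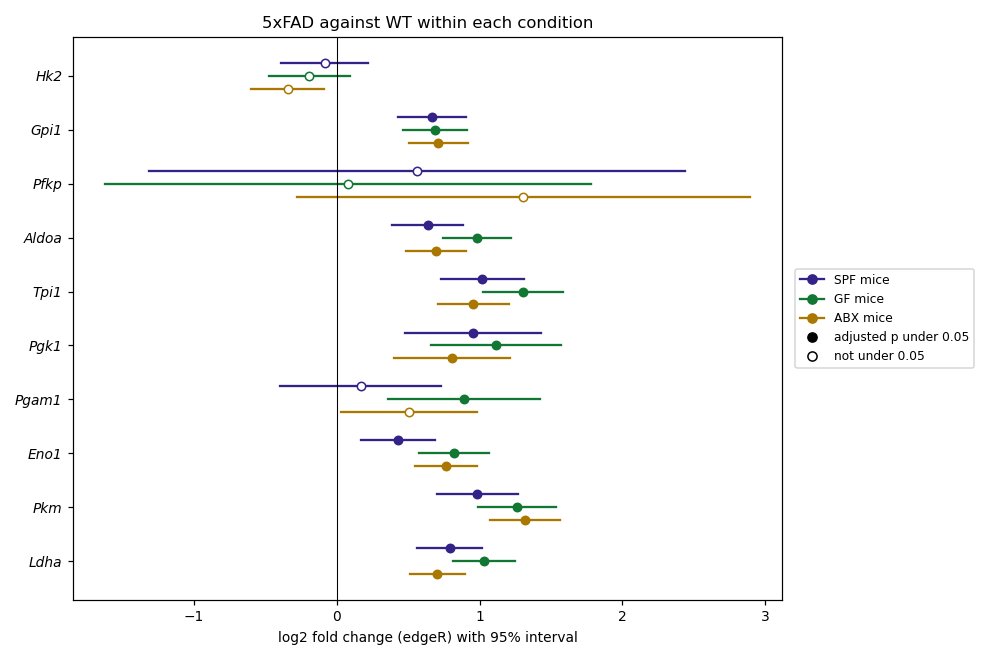
Log2 fold change between 5xFAD and WT mice for each member with its 95% interval, in SPF, GF and ABX mice. Filled points have an adjusted p-value under 0.05. Points of *Gpi1*, *Aldoa*, *Tpi1*, *Pgk1*, *Eno1*, *Pkm* and *Ldha* lie to the right of 0 in all 3 conditions, between 0.43 and 1.32, and the intervals of *Pfkp* are the widest.

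Mouse FAD_GF_201 was the lowest of the GF 5xFAD mice for *Aldoa*, *Tpi1*, *Eno1*, *Pkm*, *Ldha* and *Pgam1*, and apart from *Pgam1* it lay above all GF WT mice for these genes. Without it the log2 fold change in GF mice was 1.06 for *Aldoa*, 1.40 for *Tpi1*, 0.89 for *Eno1*, 1.36 for *Pkm* and 1.10 for *Ldha*, and each stayed past the threshold. *Gpi1* and *Pgk1* had adjusted p-values of at most 0.000487 and 0.0039 in GF mice whichever mouse was left out. Over the 26 mice without ABX 5xFAD mice FAD_ABX_1151 and FAD_ABX_1482, the 7 members called in ABX mice had adjusted p-values of at most 0.0164, with 0.72 for *Ldha* and 1.38 for *Pkm* on the log2 scale. In that set *Hk2* was also called, lower in 5xFAD mice by -0.44 (adjusted p = 0.00667).

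The size of the 5xFAD effect was compared between conditions with interaction terms in the same model. None of the 10 members passed the threshold. Of all tested genes, 0% were called between GF and SPF, 0% between ABX and SPF and 1.76% between ABX and GF mice. With edgeR, 1 member had an unadjusted p-value under 0.05 for GF against SPF, *Eno1*, with a difference in log2 fold change of 0.39 (95% interval 0.04 to 0.75, adjusted p = 0.55). For ABX against GF mice it was *Ldha*, with -0.32 and an adjusted p-value of 0.239, and for ABX against SPF mice there were 0. Over all genes edgeR gave an unadjusted p-value under 0.05 for 8.52% in GF against SPF, 6.75% in ABX against SPF and 15.9% in ABX against GF mice, so that 0 or 1 of 10 members is near the share of all genes. DESeq2 also called 0 members for each interaction, beside 0.163%, 0.00654% and 3.77% of all genes for GF against SPF, ABX against SPF and ABX against GF mice. It gave 1, 0 and 1 members an unadjusted p-value under 0.05, beside 8.97%, 7.13% and 16.8% of all genes. With voomWithQualityWeights 0 members were called, beside 0.758%, 0.0915% and 1.84% of all genes, and 5, 3 and 2 had an unadjusted p-value under 0.05, beside 15.9%, 13.2% and 16.3%.

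Conditions were next compared within the 5xFAD genotype. GF 5xFAD mice had the highest mean of the 6 groups for the 8 members from *Gpi1* to *Ldha* other than *Pfkp*, and the lowest mean for *Hk2*. Against SPF 5xFAD mice, *Aldoa*, *Eno1*, *Pkm* and *Ldha* were called higher and *Hk2* lower in GF mice, beside 6.97% of all genes called higher and 5.86% called lower. *Eno1* differed most of the 4, with 195 ± 20.3 CPM (SD, n = 5) against 122 ± 9.63 CPM (SD, n = 3), which is 0.68 on a log2 scale (SE 0.13, adjusted p = 0.00194). *Hk2* was lower by -0.73 (SE 0.15, adjusted p = 0.00299), with 102 ± 10.2 CPM (SD, n = 5) against 170 ± 35.7 CPM (SD, n = 3), and its ranges did not overlap. *Aldoa* was higher by 0.52 (adjusted p = 0.00766), *Pkm* by 0.50 (adjusted p = 0.0205) and *Ldha* by 0.42 (adjusted p = 0.0169). These 3 calls were lost under several alternatives. Without mouse FAD_SPF_1146 their adjusted p-values were 0.0595, 0.095 and 0.139, and without mouse FAD_SPF_1148 they were 0.0602, 0.0953 and 0.1415. With GC content offsets *Aldoa* stood at 0.30 (adjusted p = 0.0631) and *Pkm* at 0.26 (adjusted p = 0.236). With gene length offsets *Pkm* stood at 0.34 (adjusted p = 0.165) and *Ldha* at 0.32 (adjusted p = 0.0616), and a fit of these groups alone gave 0.39 for *Ldha* (adjusted p = 0.0623). *Gpi1* and *Tpi1*, at 0.30 and 0.33, had adjusted p-values of 0.089 and 0.134. *Tpi1* was called without mouse FAD_GF_201 (0.41, adjusted p = 0.0448), and *Gpi1* without SPF 5xFAD mouse FAD_SPF_1144 (0.43, adjusted p = 0.0336). Both were called with voomWithQualityWeights (*Gpi1* 0.39, adjusted p = 0.00428, *Tpi1* 0.41, adjusted p = 0.0068), which called 7 members here, beside 25.3% of all genes.

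ABX treatment showed no such pattern against SPF 5xFAD mice. None of the 10 members was called between ABX and SPF 5xFAD mice, where 0% of all genes were, and 0 members had an unadjusted p-value under 0.05 with edgeR or DESeq2 and 2, *Eno1* and *Hk2*, with voomWithQualityWeights, beside 7.09%, 7.57% and 16.1% of all genes. The log2 fold change was -0.06 (95% interval -0.28 to 0.16) for *Ldha*, 0.07 (-0.21 to 0.35) for *Pkm*, -0.01 (-0.26 to 0.23) for *Aldoa* and 0.23 (-0.02 to 0.49) for *Eno1*. Against GF 5xFAD mice, *Gpi1*, *Aldoa*, *Tpi1*, *Eno1*, *Pkm* and *Ldha* were called lower in ABX 5xFAD mice, beside 6.07% of all genes, and *Hk2* was called higher, beside 4.52% of all genes. The 6 log2 fold changes lay between -0.53 for *Aldoa* and -0.42 for *Gpi1*, and that of *Hk2* was 0.45. Both GF comparisons share the GF 5xFAD mice. With ABX 5xFAD mouse FAD_ABX_1151 left out, whose library has another numbering style, ABX and GF 5xFAD mice share a style, and *Hk2* was then 0.31 higher with an adjusted p-value of 0.069. The call of *Hk2* was also lost without GF 5xFAD mouse FAD_GF_184 (adjusted p = 0.0524), and that of *Pkm* without GF 5xFAD mouse FAD_GF_181 (adjusted p = 0.0513) or FAD_GF_185 (adjusted p = 0.0556) and without both ABX 5xFAD mice FAD_ABX_1151 and FAD_ABX_1482 (adjusted p = 0.0702). *Pkm* stood at -0.32 with gene length offsets (adjusted p = 0.1102) and at -0.27 with GC content offsets (adjusted p = 0.1173). In a fit of these 2 groups alone, 2 of the 7 members, *Aldoa* and *Ldha*, were called. That fit called 251 of 13308 genes in all, against 1621 of 15298 in the model of all groups.

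**Figure D3:**
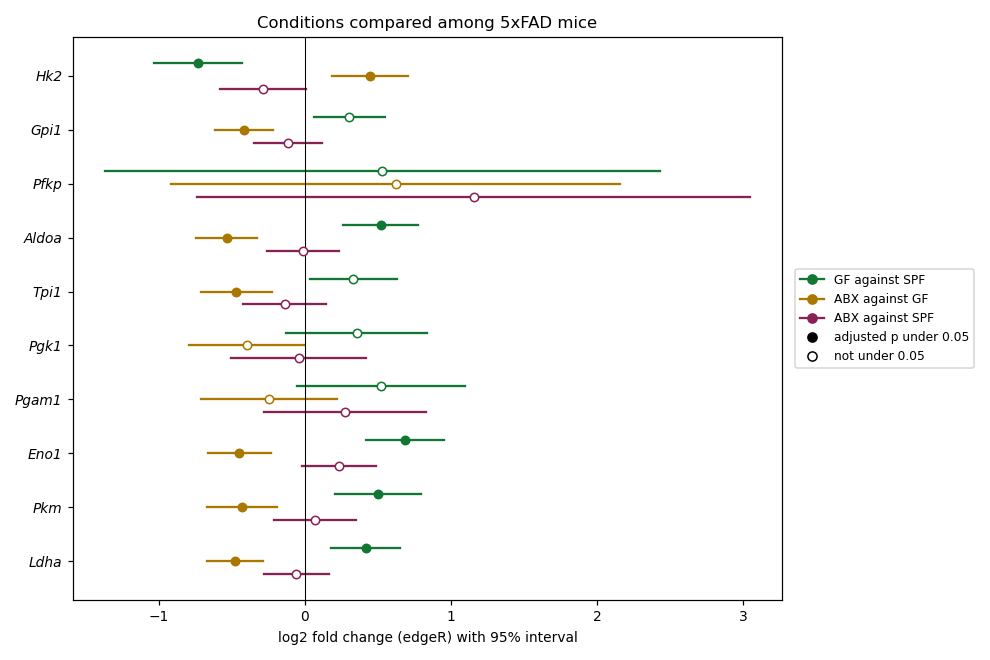
Log2 fold change between conditions among 5xFAD mice for each member with its 95% interval (GF against SPF, ABX against GF, ABX against SPF). Filled points have an adjusted p-value under 0.05. *Aldoa*, *Eno1*, *Pkm* and *Ldha* lie to the right of 0 for GF against SPF and to the left for ABX against GF mice, *Hk2* shows the opposite, and every point for ABX against SPF mice is open.

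Conditions were also compared among WT mice. *Hk2* was called lower in GF than in SPF WT mice, by -0.62 (SE 0.14, adjusted p = 0.0198), with 117 ± 12.2 CPM (SD, n = 4) against 180 ± 20.6 CPM (SD, n = 5) and no overlap, where 0.752% of all genes were called lower. The call was lost without SPF WT mouse WT_SPF_926 or WT_SPF_936 or GF WT mouse WT_GF_229 or WT_GF_231, with adjusted p-values of 0.0678, 0.0517, 0.106 and 0.0644. Between ABX and SPF WT mice 0 members were called, as were 0% of all genes, and 1, *Pkm*, had an unadjusted p-value under 0.05 with edgeR, DESeq2 and voomWithQualityWeights alike, beside 4.49%, 4.95% and 10.5% of all genes. ABX WT mice had a higher *Hk2* level than GF WT mice, by 0.60 (adjusted p = 0.0102), beside 2.4% of all genes, and lower levels of *Eno1*, *Gpi1* and *Pkm*, by -0.39, -0.44 and -0.49 (adjusted p = 0.041, 0.0139 and 0.0223), beside 4.48% of all genes. Without GF WT mouse WT_GF_229 these adjusted p-values were 0.0536 for *Hk2*, 0.118 for *Eno1*, 0.0708 for *Gpi1* and 0.0508 for *Pkm*, so that 0 members were called. The calls of *Eno1* and *Pkm* were also lost without GF WT mouse WT_GF_230 or WT_GF_231 or ABX WT mouse WT_ABX_909 or WT_ABX_911 (adjusted p of at most 0.113), and that of *Eno1* without ABX WT mouse WT_ABX_910 or SPF 5xFAD mouse FAD_SPF_1148 (0.0553 and 0.0511). With GC content offsets the changes of *Eno1*, *Gpi1* and *Pkm* were -0.15, -0.37 and -0.24 (adjusted p = 0.553, 0.0825 and 0.358), so that *Hk2* alone was called, and *Eno1* was not called without a low-count filter (adjusted p = 0.0545). Over all genes 217 of 14793 were called with GC content offsets, against 1053 of 15298 without them. *Hk2* was lower in GF than in SPF mice of both genotypes, and numbering style cannot be told apart from this difference.

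Over all 6 groups at once, 9 of 10 members differed in the F test, beside 33.2% of all genes, with adjusted p-values from 3.87e-12 for *Pkm* to 0.0292 for *Pgam1*, and 0.451 for *Pfkp*. The order of group means was GF 5xFAD, SPF 5xFAD, ABX 5xFAD and then the WT groups for *Gpi1*, *Aldoa*, *Tpi1*, *Pgk1* and *Ldha*. For *Eno1* and *Pkm* it was GF, ABX and then SPF 5xFAD mice, before the WT groups. Most neighbours in these orders overlapped. Neighbours that did not overlap were ABX 5xFAD and GF WT mice for *Tpi1*, *Pgk1* and *Ldha*, SPF 5xFAD and GF WT mice for *Pkm*, and GF and SPF 5xFAD mice for *Aldoa*. *Hk2* ran from SPF WT over ABX WT, SPF 5xFAD, ABX 5xFAD and GF WT down to GF 5xFAD mice, with an overlap at each step.

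Correlations between members were taken across mice, as a description. Across the 28 libraries, which share the genotype difference, *Aldoa*, *Tpi1*, *Eno1*, *Pkm* and *Ldha* had Pearson's r of log2 CPM between 0.92 and 0.98 for each of their 10 pairs. For deviations from the group means r lay between 0.61 and 0.83 for these pairs. Over the 28 pairs of the 8 members other than *Hk2* and *Pfkp* it ran from -0.003 to 0.83 with a median of 0.46, and *Pgk1* with *Pgam1* was the lowest. *Hk2* had r between -0.75 and -0.40 with the other members apart from *Pfkp* across libraries, and between -0.51 and -0.03 within groups. *Pfkp* had r of at most 0.28 with any member across libraries. Among the 8923 other genes with a mean of at least 3 log2 CPM, those most like the mean log2 CPM of the members were *Creg1* (r = 0.945), *Tspo* (0.944), *Ctsd* (0.942), *Gm2a* (0.941) and *Npc2* (0.940) over the 28 libraries.

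Isozymes of the same steps behaved unlike the members in part. *Gapdh*, the dehydrogenase of the pathway, is listed with them but acts at a step that no member covers. It was called higher in 5xFAD mice of all 3 conditions, by 0.71 (adjusted p = 0.0124), 0.97 (adjusted p = 0.000106) and 0.82 (adjusted p = 0.000317) on the log2 scale in SPF, GF and ABX mice. The SPF call was lost without mouse FAD_SPF_1144 (adjusted p = 0.189), and 27.8% of the 50-base windows of *Gapdh* recur in other genes. The liver-type phosphofructokinase *Pfkl*, at 97.0 to 229.5 CPM as group means, rose by 0.91 in GF (adjusted p = 4.97e-05) and 0.92 in ABX mice (adjusted p = 1.15e-05) and stood 0.48 higher in SPF mice (adjusted p = 0.082). *Hk1* and *Hk3*, the other hexokinases, had log2 fold changes of -0.08 and -0.16 in SPF and 0.04 and 0.25 in ABX mice with adjusted p-values of 0.088 or more, and in GF mice *Hk1* was called lower by -0.46 (adjusted p = 0.039) and *Hk3* stood at -0.14 (adjusted p = 0.43). *Ldhb*, the other main lactate dehydrogenase gene, stood at -0.19, 0.00 and -0.11 with adjusted p-values of 0.42, 0.99 and 0.40. The muscle-type genes *Eno3* and *Pfkm* and the neuronal *Eno2* had adjusted p-values of at least 0.24 in each condition. Of the 13 tested genes in this list of 17, 1, 3 and 2 were called higher under SPF, GF and ABX conditions, and 1, *Hk1*, lower in GF mice, beside 3.73%, 9.43% and 9.45% of all genes higher and 6.2% lower in GF mice. These counts include *Gapdh*, which is the 1 called in SPF mice. The third in GF mice is the brain-type aldolase *Aldoc*, at 0.207 CPM in WT and 1.85 CPM in 5xFAD mice.

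Shares within a step do not depend on how libraries are scaled, and were computed from counts per kb in each mouse. They do depend on the lengths used, which were the same for all mice, and on sequence shared with other genes. The length used for *Eno1* is 5379 bases, against 2027 in its longest M21 transcript. Of the 50-base windows, 72.2% of those of *Eno1* recur in other genes and 0% of *Eno3*, and 16.6% of *Ldha* and 27.0% of *Ldhb*. The percentages are thus not read as the make-up of a step. The share of *Ldha* in *Ldha* and *Ldhb* rose from 15.3% ± 1.59 (SD, n = 5) to 26.1% ± 2.71 (SD, n = 3) in SPF, from 15.7% ± 0.819 (SD, n = 4) to 27.4% ± 1.67 (SD, n = 5) in GF and from 15.6% ± 1.39 (SD, n = 5) to 24.7% ± 3.02 (SD, n = 6) in ABX mice. All 14 WT mice lay between 13.1% and 17.4% and all 14 5xFAD mice between 21.8% and 29.7%. Two-sided exact permutation tests gave p = 0.0179, 0.00794 and 0.00216, the smallest that these group sizes allow, and 0.0417, 0.0238 and 0.0162 after adjustment over 15 tests. The SPF call was lost without any 1 of the 8 SPF mice (exact adjusted p = 0.0536 to 0.102). The share of *Eno1* among enolase genes rose from 56.1% ± 3.07 (SD, n = 4) to 70.2% ± 1.97 (SD, n = 5) in GF mice (exact adjusted p = 0.0238) and from 52.5% ± 3.05 (SD, n = 5) to 65.1% ± 4.10 (SD, n = 6) in ABX mice (exact adjusted p = 0.0162). In SPF mice it was 52.9% ± 3.97 (SD, n = 5) in WT and 62.9% ± 4.38 (SD, n = 3) in 5xFAD mice (exact adjusted p = 0.067). The GF calls of *Ldha* and *Eno1* were lost without any 1 of the 5 GF 5xFAD mice (exact adjusted p = 0.0612), where, as for the SPF mice left out, the smallest p-value that the group sizes allow is larger.

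*Hk2* took 37.2% ± 1.96 (SD, n = 5) of the hexokinase reads per kb in SPF WT and 38.0% ± 4.14 (SD, n = 3) in SPF 5xFAD mice, and 25.3% ± 3.12 (SD, n = 4) and 25.1% ± 3.88 (SD, n = 5) in the GF groups. Genotype differences of 0.803 and -0.116 percentage points had exact permutation p-values of 0.696 and 0.984. In ABX mice the share was 40.8% ± 5.09 (SD, n = 5) in WT and 31.3% ± 4.67 (SD, n = 6) in 5xFAD mice, lower by -9.55 percentage points (exact permutation p = 0.0195, adjusted p = 0.0417). Mouse FAD_ABX_1151, at 40.4%, lay above the other 5 ABX 5xFAD mice, which reached at most 31.5%. Leaving out any of 8 of the 11 ABX mice raised the adjusted p-value over the threshold. *Pfkp* held at most 1.88% of the phosphofructokinase reads per kb in any 5xFAD mouse and 1.31% in any WT mouse, and its 3 exact permutation p-values were 0.286 or more. *Aldoa* held at least 96.7% of the aldolase reads per kb in each mouse. Its share was lower in GF 5xFAD than in GF WT mice by -0.321 percentage points (exact permutation p = 0.00794, adjusted p = 0.0238), a call lost without any 1 of 7 of the 9 GF mice, and the p-values in SPF and ABX mice were 0.339 and 0.90.

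**Figure D4:**
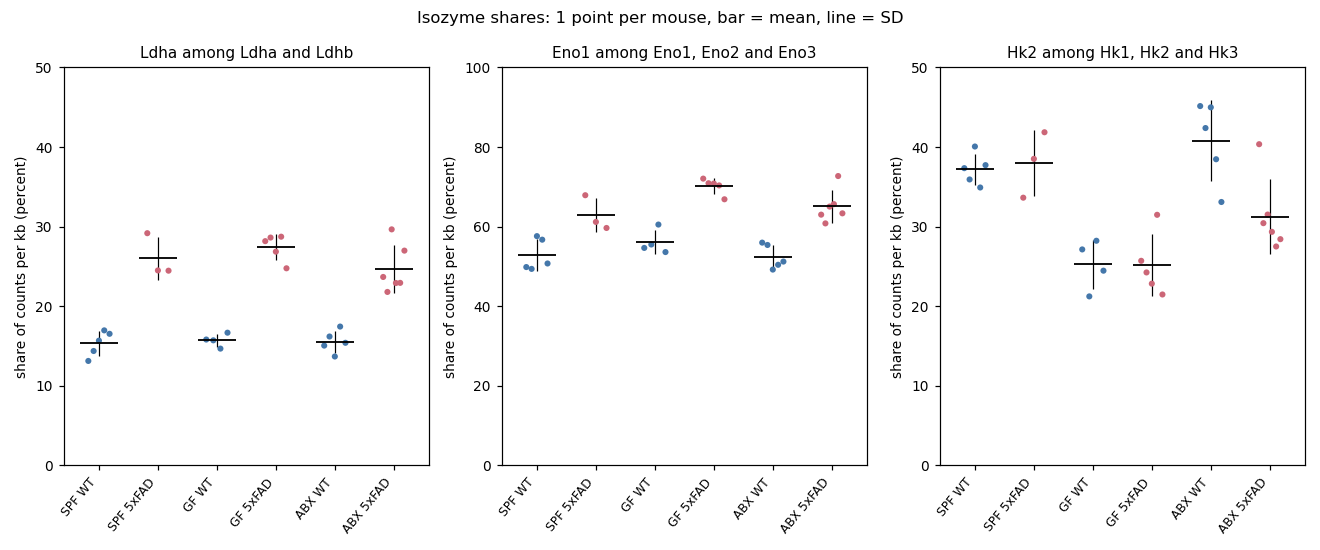
Share of *Ldha*, *Eno1* and *Hk2* among the genes of their step in counts per kb, in percent, with 1 point per mouse (blue WT, red 5xFAD), a bar at the mean and a line of 1 SD to either side. *Ldha* takes 13.1% to 17.4% in WT and 21.8% to 29.7% in 5xFAD mice of all conditions, and *Hk2* takes least in the GF groups.

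Genes that bring glucose in and lactate out were tested next to the members. Of 10 tested transporters in a list of 12, 5 were called higher in 5xFAD mice under each condition and 0, 1 and 1 lower in SPF, GF and ABX mice. Of all genes 3.73%, 9.43% and 9.45% were called higher and 0.837%, 6.2% and 4.98% lower. *Slc2a1*, which encodes the glucose transporter GLUT1, rose from 68.1 ± 2.64 to 98.7 ± 17.6 CPM (mean ± SD) in SPF mice (log2 fold change 0.53, adjusted p = 0.029), from 68.0 ± 8.48 to 118 ± 16.3 CPM in GF mice (0.80, adjusted p = 0.00012) and from 63.0 ± 11.3 to 97.9 ± 16.5 CPM in ABX mice (0.63, adjusted p = 0.00064). Its SPF call was lost without SPF WT mouse WT_SPF_912, WT_SPF_925 or WT_SPF_936 or SPF 5xFAD mouse FAD_SPF_1144 or FAD_SPF_1146, with adjusted p-values of 0.0523 to 0.296. *Slc2a6*, a further member of the glucose transporter family, changed most, by 2.14, 2.25 and 3.05 on the log2 scale in SPF, GF and ABX mice (adjusted p = 0.00046, 8.1e-05 and 4.5e-07).

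*Slc16a3*, the lactate exporter MCT4, rose by 0.78, 1.39 and 0.64 under SPF, GF and ABX conditions (adjusted p = 0.0017, 8.6e-08 and 0.0014), and the difference of -0.75 between the effects in ABX and GF mice was called (adjusted p = 0.0487). *Bsg*, which carries monocarboxylate transporters to the cell surface, rose by 0.74 in GF and 0.30 in ABX mice (adjusted p = 3.8e-07 and 0.010), stood 0.30 higher in SPF mice (adjusted p = 0.065) and likewise differed in its effect between ABX and GF mice, by -0.44 (adjusted p = 0.0487). The others called higher were *Slc16a1* in all 3 conditions and *Slc2a3* in SPF mice, and the one called lower in GF and ABX mice was *Slc2a5*, named here after their values were seen. *Slc2a5* encodes a fructose transporter typical of microglia.

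HIF-1 genes were tested because the factor acts on many glycolytic genes. *Hif1a*, its regulated subunit, rose from 177 ± 14.5 to 429 ± 42.2 CPM in SPF, from 139 ± 13.9 to 408 ± 70.1 CPM in GF and from 166 to 349 CPM in ABX mice (means, with SD for SPF and GF mice). Its log2 fold changes were 1.28 (adjusted p = 1.34e-06), 1.55 (adjusted p = 1.45e-08) and 1.08 (adjusted p = 1.29e-06), and genotypes did not overlap in any condition. *Egln3*, a prolyl hydroxylase that marks HIF subunits for breakdown and is itself a HIF target, was near absent in WT and present in 5xFAD mice, with means ± SD of 0.902 ± 0.428 against 17.5 ± 3.14 CPM in SPF, 1.24 ± 0.672 against 27.6 ± 6.57 CPM in GF and 0.629 ± 0.754 against 12.8 ± 5.05 CPM in ABX mice. The log2 fold changes of *Egln3* were 4.29, 4.49 and 4.39 (adjusted p = 1.04e-06, 4.63e-07 and 2.99e-07). Of the 7 tested genes of the HIF-1 pathway, 2, *Hif1a* and *Egln3*, were called higher under each condition, and *Arnt*, the partner subunit, was called lower in GF mice (-0.35, adjusted p = 0.032), beside 3.73%, 9.43% and 9.45% of all genes higher and 6.2% lower in GF mice.

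HIF-1 target genes outside glycolysis were counted in the same way. Of 16 tested in a list of 20, 1 was called higher in SPF mice, *Egln3*, 4 higher in GF mice and 2 higher and 2 lower in ABX mice, beside 3.73%, 9.43% and 9.45% of all genes higher and 4.98% lower in ABX mice. The median log2 fold change was 0.36, 0.38 and 0.04 in SPF, GF and ABX mice, with 12, 11 and 10 of the 16 above 0, beside -0.03, -0.03 and -0.01 over all genes. Those called were *Egln3*, *Bnip3*, *Hmox1* and *Ero1l* in GF mice and *Egln3*, *Car9*, *Ddit4* and *Bnip3l* in ABX mice, the last 2 lower, and *Bnip3*, *Hmox1*, *Ero1l*, *Car9* and *Ddit4* are named after their values were seen. *Vegfa*, the vascular growth factor, stood at 1.96 ± 0.389 CPM (SD, n = 5) in SPF WT and 3.87 ± 1.05 CPM (SD, n = 3) in SPF 5xFAD mice and had adjusted p-values of at least 0.19 in the 3 conditions. *P4ha1*, a collagen prolyl hydroxylase, had log2 fold changes of 0.15, -0.08 and -0.25 with adjusted p-values of at least 0.10.

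Regulators of the flux through glycolysis form a further list. *Txnip*, which restrains glucose uptake, fell in 5xFAD mice of all conditions, with log2 fold changes of -0.52, -0.61 and -0.59 under SPF, GF and ABX conditions (adjusted p = 0.013, 0.00035 and 0.00018), and the SPF call was lost without mouse FAD_SPF_1144 or FAD_SPF_1146 (adjusted p = 0.0594 and 0.113). The pyruvate dehydrogenase kinase gene *Pdk3* rose by 0.91 in GF and 0.48 in ABX mice (adjusted p = 6.8e-05 and 0.016) and stood 0.24 higher in SPF mice (adjusted p = 0.59). *Pdk1* was called higher in GF mice by 0.35 (adjusted p = 0.035) and *Pfkfb2* lower by -0.70 (adjusted p = 0.039). Of the 12 tested regulators in a list of 14, 0, 2 and 2 were called higher and 1, 3 and 1 lower in SPF, GF and ABX mice, beside 3.73%, 9.43% and 9.45% of all genes higher and 0.837%, 6.2% and 4.98% lower. *Pfkfb3*, called higher in ABX mice, and *Pdpr*, called lower in GF mice, complete these counts, and both are named after their values were seen.

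**Figure D5:**
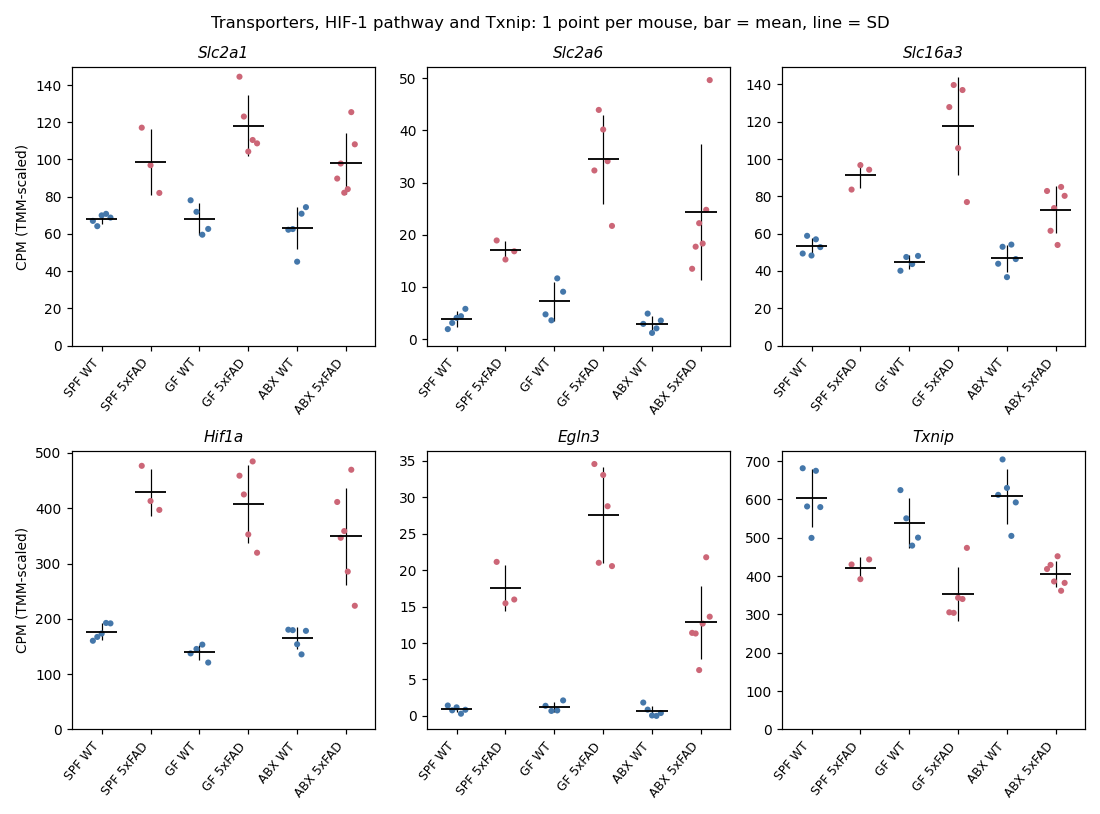
CPM of the transporters *Slc2a1*, *Slc2a6* and *Slc16a3*, of *Hif1a* and *Egln3* and of *Txnip* in the 28 mice, by group, with 1 point per mouse (blue WT, red 5xFAD), a bar at the mean and a line of 1 SD to either side. All but *Txnip* are higher in 5xFAD mice, *Egln3* from at most 2.13 CPM in WT to at least 6.29 CPM in 5xFAD mice, and *Txnip* is lower.

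Pathways that share metabolites with glycolysis were read against the same shares of all genes, 3.73%, 9.43% and 9.45% higher and 0.837%, 6.2% and 4.98% lower in SPF, GF and ABX mice. In the citric acid cycle 0 of 20 tested genes were called under SPF conditions, 7 higher and 1 lower under GF and 5 higher under ABX conditions, with a median log2 fold change of 0.08, 0.22 and 0.08. *Mdh2*, a malate dehydrogenase, rose by 0.43 in GF (adjusted p = 0.0041) and 0.31 in ABX mice (adjusted p = 0.025). Of 10 pentose phosphate genes 0 were called in SPF mice and 2 were called higher in both GF and ABX mice, the transketolase gene *Tkt* (0.56 and 0.70, adjusted p = 0.000809 and 1.67e-05) and *G6pdx* (0.37 and 0.34, adjusted p = 0.0080 and 0.0087), the enzyme that opens that pathway. Among 8 genes for the entry of pyruvate into mitochondria 0 were called in SPF and ABX mice and 2 higher in GF mice, the carrier subunits *Mpc1* (0.51, adjusted p = 0.0076) and *Mpc2* (0.39, adjusted p = 0.048).

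Of 10 tested genes of glycogen metabolism 0 were called under SPF, 2 higher and 1 lower under GF and 1 higher under ABX conditions. *Pgm2* rose by 0.70 in GF and 0.40 in ABX mice (adjusted p = 0.00023 and 0.020), the glycogen phosphorylase gene *Pygl* rose by 1.00 in GF mice (adjusted p = 0.00016) and the branching enzyme gene *Gbe1* fell by 0.60 in GF mice (adjusted p = 0.0055). Of gluconeogenesis only 3 of 7 genes had enough reads, and 0 of these were called in any of the 3 comparisons. At an unadjusted p-value under 0.05 edgeR gave 1 gene of the citric acid cycle, 1 of the pentose phosphate pathway, 1 of pyruvate entry, 2 of glycogen metabolism and 0 of gluconeogenesis in SPF mice, beside 14.3% of all genes. DESeq2 called 0 genes of these 5 lists in SPF mice, beside 5.84% of all genes, and voomWithQualityWeights called 1, 1, 2, 1 and 0, beside 14.1%. Of 10 retrocopies named after a member, 7 are in the table and 1 had enough reads to be tested, and it was not called in any of the 3 comparisons of genotypes.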

How the data were processed

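RNA was sequenced from sorted hippocampal microglia of 28 mice. The authors deposited raw counts of reads per gene, made with STAR 2.7.2 and featureCounts 1.6.2 per the labels, which also name CASAVA 1.8.2, FastQC 0.11.8, limma 3.40.6 and edgeR 3.26.7. The labels name the human build GRCh38.p12, whereas the methods and the gene identifiers are those of the mouse (GRCm38, GENCODE M21). Strand and multiple matches were handled in a way not given in the sources used here. The table's 92 spike-in entries (at most 12 reads per library) were left out, and 0 columns belonged to other samples.

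Genes with enough reads (filterByExpr by group, minimum count 10, minimum total 15) were tested with TMM scaling in edgeR 4.0.16 (R 4.3.3), by the quasi-likelihood test in 1 model over the 6 groups, with Benjamini-Hochberg adjustment over 15298 genes. DESeq2 1.42.0 and limma 3.58.1 (voomWithQualityWeights) served as alternatives, as did other scalings, filters, gene length and GC offsets, fits of the compared groups alone and fits without each mouse. The scripts were tested on simulated data. log2 CPM for correlations used a prior count of 2, and figures were drawn with matplotlib 3.10.9. Shares of isozymes were compared by two-sided exact permutation tests adjusted over 15 tests. Each library is a separate mouse, so p-values measure the spread between mice. Reads carry no molecular identifiers.

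The members and lists were chosen with earlier results of these data known. Besides the members, the text names Gapdh, Hif1a and the main isozymes, the genes of each list with the smallest F test p-value (up to 4 per list), and the 5 genes most correlated with the members. Some genes that the rule names are not reported here. Genes outside this rule are marked as named after their values were seen.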

Additional observations from a re-analysis of the deposited data

Results flagged for a closer look

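In 75 sets of values, each a member or share in a group of 4 to 6 mice, 9 had a mouse that stood apart from the others of its group by Dixon's 95% criterion, which chance alone meets in about 1 of 20 sets. Mouse FAD_GF_201, whose description differs from its title, was low among GF 5xFAD mice, with 403 CPM of *Aldoa* against 512 to 554 CPM in the others and 261 CPM of *Ldha* against 320.2 to 339 CPM. Its *Aldoa* and *Ldha* levels lay above those of all GF WT mice. Mouse FAD_ABX_1151, whose neutrophil markers summed to 117.1 CPM, was high among ABX 5xFAD mice, with 204 CPM of *Hk2* against 110.1 to 134 CPM in the others and an *Hk2* share of 40.4% against 27.5% to 31.5%. The part of neutrophils in this value was not tested.

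Among GF 5xFAD mice, mouse FAD_GF_185 had 120.3 CPM of *Hk2* against 95.4 to 99.8 CPM, and mouse FAD_GF_184 had 148 CPM of *Gpi1* against 112.5 to 118 CPM. Mouse FAD_ABX_1460 had 437.5 CPM of *Pkm* against 257 to 308 CPM in the other ABX 5xFAD mice. The share of *Aldoa* was 99.3% in GF 5xFAD mouse FAD_GF_182 against 99.6% to 99.7%, and 98.4% in ABX 5xFAD mouse FAD_ABX_1455 against 99.4% to 99.9%.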

How the results depend on the processing

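Over the alternatives, the 39 called log2 fold changes of members changed sign in 0 cases and no longer passed the threshold in 67. The 81 not called gave 3066 values, of which 71 changed sign and 15 passed. For GF against SPF 5xFAD mice, 5 members were called, 3 with gene length offsets, 3 with GC offsets and 2 to 6 without a mouse, the lowest without SPF 5xFAD mouse FAD_SPF_1146 or FAD_SPF_1148. Over all genes 1962 of 15298 were called, 1339 of 15298 with gene length offsets and 1324 of 14793 with GC offsets. For ABX against GF 5xFAD mice, 7 were called and 2 in a fit of those groups alone, beside 1621 of 15298 and 251 of 13308 genes. For GF against SPF WT mice, 1 was called, 2 in a fit of those groups alone or with voomWithQualityWeights and 0 to 1 without a mouse. Over all genes 248 of 15298 were called, 1286 of 13395 in the fit of those groups and 1631 of 15298 with voomWithQualityWeights. For ABX against GF WT mice, 4 were called, 1 with GC offsets and 0 to 4 without a mouse. Over all genes 1053 of 15298 were called and 217 of 14793 with GC offsets. For the fits without a mouse, counts over all genes are not reported here. The causes were not tested. Of the 15 isozyme shares 7 passed, and 2 to 7 without a mouse, the fewest without a GF 5xFAD mouse, where the smallest possible p-value rises by construction. Without a mouse, 5 to 7, 7 to 8 and 7 to 8 members were called for 5xFAD against WT mice in SPF, GF and ABX mice. With library size alone, the median over all genes moved from -0.03 to -0.15 in GF mice, and calls split into 533 higher and 215 lower in SPF, 1107 and 1919 in GF and 1160 and 1311 in ABX mice, beside 571 and 128, 1442 and 949 and 1445 and 762. SPF 5xFAD mice number 3, and *Pgk1*, *Pgam1* and *Pfkp* have few reads, which limits their precision. No paired analysis was possible because mouse numbers are unique.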
